A study of Labroides dimidiatus with 23 samples.

Results

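The comparison described here sets 6 forebrain libraries of familiarised cleaner wrasse labelled 120 against 5 of the 6 libraries of familiarised fish labelled 30. These 11 libraries were chosen by their titles from 23 in the series, and familiar 30 replicate 2 was left out because its list held 7077 peaks, against a median of 45859 over all lists. The cleaner wrasse, Labroides dimidiatus, is a reef fish that removes parasites from other fish, its clients. In the study, fish went through a social preference test, and the familiarised ones had been given time with a client beforehand, whereas for control fish neither client was known. The number 30 or 120 carries no unit in the labels, and reading it as a time is an assumption. All fish were adult and from 1 species, the tissue was forebrain in every library, and no genotype, strain, sex, age in days or brain subdivision is given. The 6 control libraries labelled 120 and the 5 labelled 30 served to ask whether a difference between the labels was also seen without familiarisation.

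Acetylation of lysine 27 on histone H3 (H3K27ac) is laid down by the acetyltransferases p300 and CBP and removed by histone deacetylases. It is found at active promoters and separates active enhancers from poised ones. Long stretches of the mark tend to lie at genes that define a cell type, and in neurons the mark is gained at enhancers and promoters of genes that respond to activity. In whole forebrain, a peak sums over neurons, glia and other cells, so that fewer cells of a type and less acetylation per cell cannot be told apart. CUT&RUN maps the mark by releasing antibody-bound chromatin with a tethered nuclease. Genes, promoters and sequences under the peaks were not analysed here, since no genome of the files' build was used, and regions are given by position. The sources used here do not give the build itself, and defining markers of the forebrain could not be checked for the same reason.

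Each library came as a list of broad peaks, without read counts, so the depth of each library is unknown and the values describe where peaks were called and not how much acetylation there was. To compare libraries, stretches covered by peaks in 3 or more of the 22 kept libraries were merged into 52979 regions. The measure for a region is its cover, the percent of its length under peaks of a library. A region is called touched where its cover is above 0 and present where it is at least 50%. For broader shifts, cover was also taken over windows of 100 kb.

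Few regions separated all familiar libraries of one label from all of the other. Of all regions, 5473 were present in all 11 libraries, which is 10.3% of the regions and 35.8 Mb, while 866 were present in none. At the other extreme, 1 region (0.00189%) was present in all 6 libraries labelled 120 and in none labelled 30, and 5 regions (0.00944%) were present in all 5 libraries labelled 30 and in none labelled 120. The same counts in controls were 7 and 7 (0.0132% each). Between these corners lay the regions present in some libraries of each label, such as 5209 present in 1 library labelled 120 and 1 labelled 30.

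**Figure D1:**
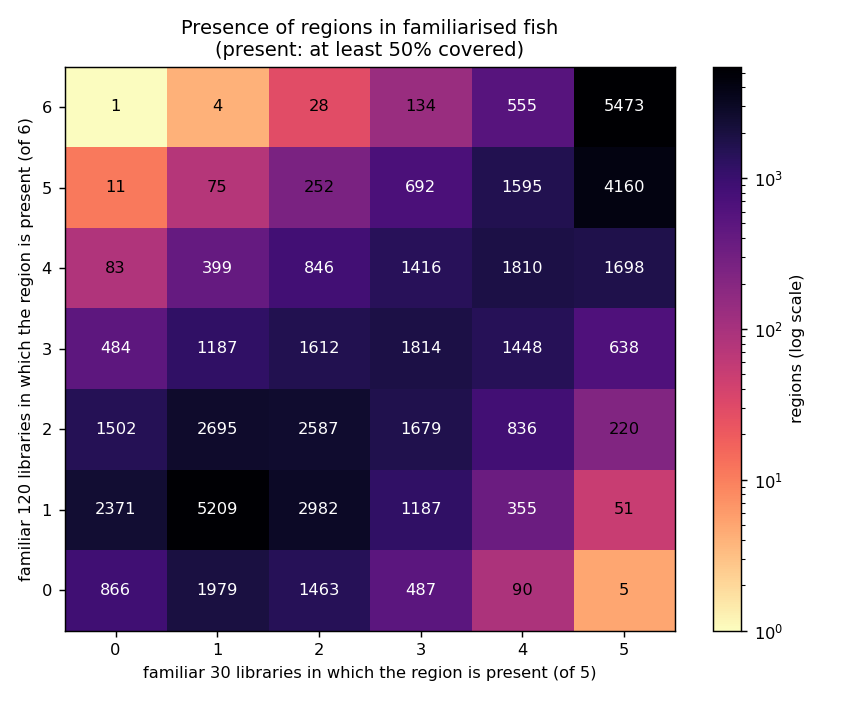
Number of regions by how many familiar 120 libraries (vertical axis, 0 to 6) and how many familiar 30 libraries (horizontal axis, 0 to 5) held them at 50% cover or more, with colour on a log scale. Counts are largest toward the corner of presence in all 11 libraries, with 5473 regions, and in the field of 1 and 1 library, with 5209, while the corners of exclusive presence hold 1 and 5.

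The single region present only at label 120 among familiar libraries lies on chromosome 13 from 15010544 to 15012128 and is 1585 bp long. Its cover at 120 was 75.7, 55.2, 69.6, 68.6, 100 and 57.4% in replicates 1 to 6. At 30 it was 48, 18, 0, 19.6 and 46.9% in replicates 1, 3, 4, 5 and 6. All libraries labelled 120 thus lay above all labelled 30, but the nearest values were 55.2% and 48%. The mean cover was 71.1% ± 16.2 (SD, n = 6) against 26.5% ± 20.6 (SD, n = 5), and the difference did not pass the threshold (limma, adjusted p = 0.999). In controls the mean cover was 54.7% at 120 and 42.0% at 30.

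The 5 regions present only at label 30 included 1 long region, on chromosome 4 from 14364231 to 14374232 (10002 bp). Its cover was 40.5% ± 4.01 at 120 (SD, n = 6) and 66.2% ± 13.6 at 30 (SD, n = 5), where single libraries ranged from 50.6 to 79.2%. Peaks were therefore called in it in every familiar library, and what differed was how much of its length they covered. The same held for a region of 2901 bp on chromosome 22 from 851025 to 853925, covered by 38.8% ± 8.88 at 120 (n = 6) and by 81.9% ± 16.5 at 30 (n = 5). Control means at that region were 66.8% at 120 and 44.2% at 30. Adjusted p-values of limma for these 2 regions were 0.999 and 0.697. Of the others, a region at 22997897 to 22999389 of chromosome 10 and another at 6225543 to 6226896 of chromosome 16 were untouched in familiar 120 replicates 3 and 4 and partly covered in the other 4 libraries of that label. The last, on chromosome 13 from 13504390, is taken up below.

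Over the whole genome, the libraries labelled 120 had lower mean cover than those labelled 30 at most regions. Replicates 3 and 4 of label 120 had the lowest cover of the familiar libraries. These 2 libraries covered 67.3 and 69.9 Mb, against 87.4 to 95.2 Mb in the other 4 at 120 and 82.1 to 94.4 Mb in the 5 at 30. The mean cover of all tested regions was 29.7 and 31.8% in them, 44.6 to 51.4% in the other 4 and 41.7 to 50.3% at label 30. The group means of covered length were 83.5 Mb ± 11.9 (SD, n = 6) and 90.4 Mb ± 4.86 (SD, n = 5). Their difference of -6.84 Mb did not pass the threshold (two-sided exact permutation test, p = 0.303, adjusted p = 0.596). Without these 2 libraries, a choice made after their values were seen, covered length at 120 was 0.628 Mb higher than at 30. Leaving out the lowest libraries of a label raises its mean, so the direction of this change is fixed by the choice. The number that opens each title is read here as a fish number, which the labels do not state. Both libraries have a number in the range 43 to 59, as do familiar 30 replicates 3 and 4, which covered 91.9 and 94.4 Mb. In that range the labels differed by -24.6 Mb, whereas the differences in the ranges 17 to 29 and 69 to 80 were 0.934 and 3.13 Mb. The range 17 to 29 holds only 1 kept familiar library labelled 30. Nothing in the labels says whether the ranges are batches.

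**Figure D2:**
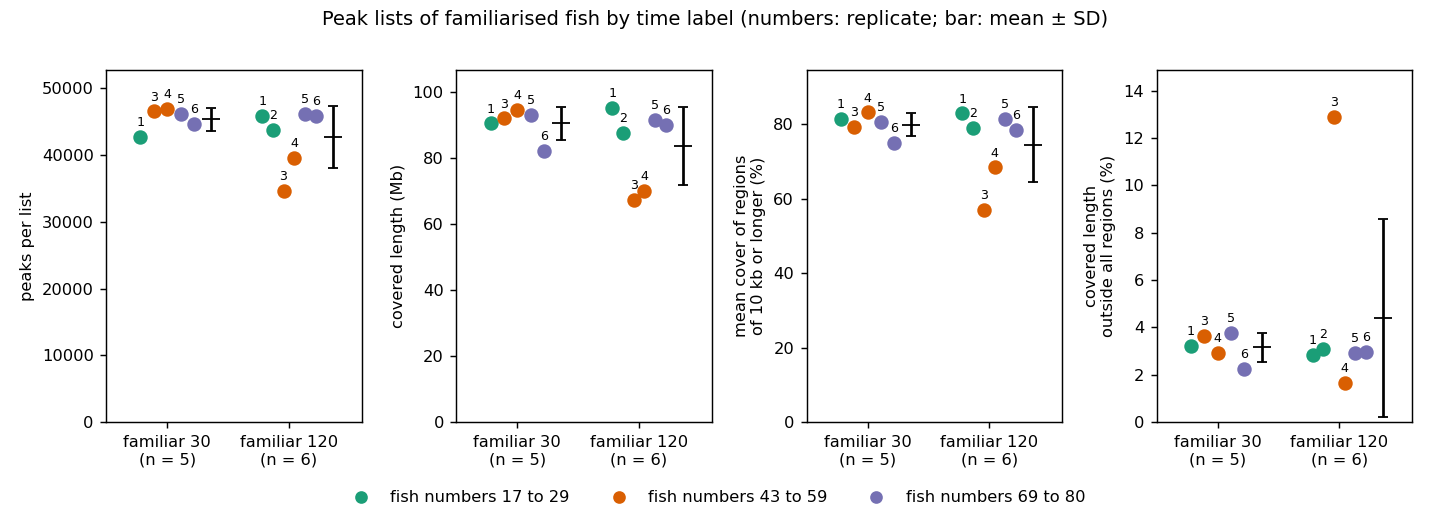
Number of peaks, covered length (Mb), mean cover of regions of 10 kb or longer (%) and covered length outside all regions (%) for the 5 familiar 30 and 6 familiar 120 libraries, 1 point per library with its replicate number, coloured by range of fish numbers, with the mean and SD beside. Replicates 3 and 4 of label 120 lie lowest in the first 3 panels, at 67.3 and 69.9 Mb in covered length, and replicate 3 stands alone in the last at 12.9%.

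The other summaries of the peak lists did not separate the labels either. The lists held 42682 ± 4632 peaks at 120 and 45412 ± 1725 at 30 (SD, n = 6 and 5; two-sided exact permutation test, p = 0.290). Median peak width was 1039 bp ± 35.4 and 1061 bp ± 38.8 (exact p = 0.331). Peaks of 10 kb or longer, which take in the long domains of the mark, numbered 999.7 ± 223 at 120 and 1119 ± 129 at 30 (exact p = 0.323) and held 20.1% ± 2.53 and 20.6% ± 2.07 of the covered length (exact p = 0.760). Cover of regions of 10 kb or longer was 74.5% ± 9.99 and 79.9% ± 3.05 (exact p = 0.323), and they were broken into 2.67 ± 0.354 and 2.52 ± 0.232 peaks per region (exact p = 0.405). Of the 9 summaries tested, 0 passed the threshold of 0.05 and 0 had an unadjusted exact p under it, and the lowest adjusted p was 0.596. The smallest p that 6 libraries against 5 can give is 0.00216.

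Familiar 120 replicate 3 also differed from the other lists in where its peaks lay. Of its covered length, 12.9% fell outside all regions, against 1.64 to 3.10% in the other libraries labelled 120 and 2.27 to 3.76% at label 30. Its Jaccard index, the shared length of a pair of lists over their joint length, had a median of 0.420 with the other libraries labelled 120, while the 45 pairs without it ranged from 0.580 to 0.674. Among all kept libraries its closest list was control 30 replicate 3, with an index of 0.575, a library that itself had 8.21% of its covered length outside all regions. Familiar 120 replicate 4, in contrast, had few peaks outside the regions (1.64%) and an index of up to 0.627 with familiar 30 replicate 6. The mean index within labels was 0.591 and that between labels 0.602, so that lists of 1 label overlapped no more with each other than with those of the other label (one-sided exact permutation test over 462 ways, p = 0.918). Without familiar 120 replicate 3 and familiar 30 replicate 4, the means were 0.632 and 0.636 (one-sided exact permutation test over 126 ways, p = 0.770). For each of the 5 libraries labelled 30, the closest of the other 10 familiar lists was one labelled 120.

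The lower cover was seen on every chromosome. Percent of length covered was lower at 120 on 24 of 24 chromosomes, by 0.624 to 1.65 percentage points, and on 7 of 24 once replicates 3 and 4 of label 120 were left out together. Leaving out replicate 3 alone kept it at 24. Replicates 3 and 4 had the lowest covered length, so a lower count without them is in part fixed by that choice. In controls the percent covered was lower at 120 on 23 of 24, but by less. These differences ran from -0.458 to -0.0709 percentage points, and that on chromosome 8 was 0.0539. Taken as a share of each library's covered length, which is free of the total, 0 of 24 chromosomes passed the threshold by a two-sided exact permutation test and 1 had an unadjusted p under 0.05. That was chromosome 13, with 4.47% ± 0.0257 at 120 (n = 6) and 4.52% ± 0.0342 at 30 (n = 5; exact p = 0.0455, adjusted p = 0.860).

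Region by region, 0 of 52924 regions tested passed the threshold in limma (0% called), and the lowest adjusted p was 0.221. Before adjustment, 2215 regions (4.19%) had a p under 0.05, of which 368 were higher at 120 (0.695%) and 1847 lower (3.49%). By Fisher's exact test on presence, 0 regions were called and 162 had a p under 0.05 before adjustment, 16 of them higher and 146 lower at 120. Its smallest possible p is 0.00216, which 2292 regions would have had to reach together to pass adjustment and 6 did. The median difference over all tested regions was -4.81 percentage points, with a median standard error of 17.4 points for a single region. In controls limma called 0 regions as well (0%), with 1691 (3.20%) at an unadjusted p under 0.05 and a median difference of 0. The difference between the familiar and the control difference passed the threshold at 0 regions (0%), with 2194 (4.15%) at an unadjusted p under 0.05.

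The excess of regions lower at 120 was found in the range of fish numbers that holds replicates 3 and 4 of label 120. Within the range of fish numbers 43 to 59, cover was lower at 120 in 71.5% of tested regions, with a median difference of -17.7 points. In the ranges 17 to 29 and 69 to 80 the shares were 39.2% and 40.9%, with medians of 0. The range 17 to 29 rests on 2 familiar libraries labelled 120 and 1 labelled 30, and the other ranges on 2 of each. Leaving out replicates 3 and 4 of label 120 turned the balance of regions with a p under 0.05 before adjustment, to 1383 with higher cover at 120 and 783 with lower cover, and the median difference to 0.460 points. The direction of this turn is in part fixed by leaving out the libraries of lowest cover. Covered length is nearly the sum of the cover tested, so a fit with it as a covariate brings the median close to 0 by construction. In that fit such regions numbered 1151 with higher and 843 with lower cover, and the median was -0.195 points. What sets the covered length of these 2 libraries was not tested.

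**Figure D3:**
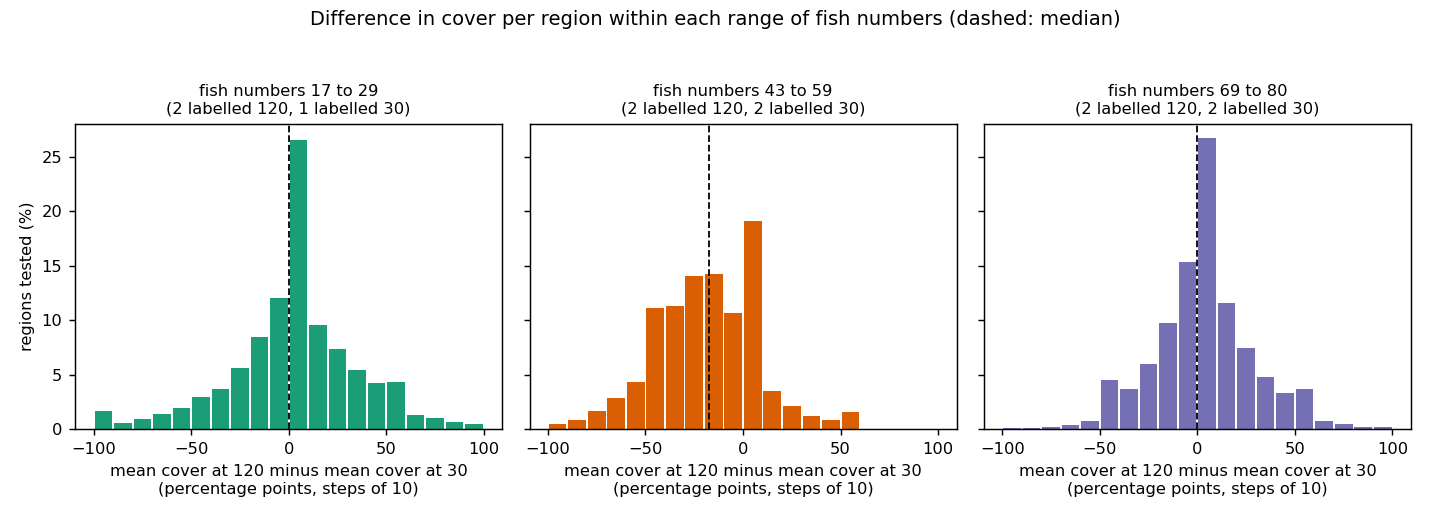
Share of the 52924 tested regions (vertical axis, %) by their difference in mean cover, 120 minus 30 (horizontal axis, percentage points, in steps of 10, where the step from 0 to 10 includes differences of exactly 0), within each range of fish numbers. The dashed median lies at 0 in the ranges 17 to 29 and 69 to 80 and at -17.7 in the range 43 to 59, which holds replicates 3 and 4 of both labels. The range 17 to 29 holds 2 libraries labelled 120 and 1 labelled 30.

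The lower cover was seen in regions of every length. Median differences were -3.33 points for regions under 1 kb, -5.68 for 1 to 3 kb, -5.85 for 3 to 10 kb and -5.38 for 10 kb or longer. In the longest class, mean cover was 74.2% ± 10.1 at 120 (SD, n = 6) and 79.6% ± 3.08 at 30 (SD, n = 5; two-sided exact permutation test, p = 0.323, adjusted p = 0.361 over the 4 classes). In that class of 2109 tested regions, 0 with higher and 24 with lower cover at 120 had a p under 0.05 before adjustment, against 231 and 764 of 20660 regions under 1 kb. The regions higher at 120 at that p were shorter and less widely shared than all tested regions, with a median length of 820.5 bp and peaks in a median of 10 of the 22 kept libraries. For those lower at 120 the medians were 1180 bp and 16 libraries, and for all tested regions 1281 bp and 18 libraries. The strongest familiar peak of a region, ranked by the authors' -log10 q within its list, stood at a median percentile of 23.6 in the first set, 34.1 in the second and 39.4 in all tested regions, where 100 is the strongest. Both sets were chosen by unadjusted p, and 0 regions passed adjustment. They include 17 regions higher and 113 lower at 120 with 100% cover in exactly 3 libraries and 0 elsewhere. Their length, sharing and rank are thus in part fixed by how they were chosen.

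Some regions separated every familiar library of label 120 from every one of label 30. In 6 regions (0.0113% of those tested) all values at 120 were above all values at 30, and in 83 (0.157%) all were below. In controls, 54 regions (0.102%) lay above and 53 (0.100%) below. The 83 regions had a median length of 1493 bp, peaks in a median of 21 kept libraries and a median percentile of 61.4, and the 6 regions had 1283.5 bp, 19.5 libraries and 38.3. Both sets need peaks in every library of one label, so wide sharing is in part fixed by how they were chosen. These counts turned with replicates 3 and 4 of label 120: without them, 306 regions lay above and 147 below. They also moved with single libraries at label 30, since without familiar 30 replicate 6 the numbers were 15 and 333. Fewer libraries make full separation easier, so a rise in both counts is in part fixed by leaving libraries out. Leaving out the lowest libraries of label 120 also favours the count above. Limma tested 52877 regions without replicates 3 and 4 of label 120 and 52922 without familiar 30 replicate 6.

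The region with the plainest pattern lies on chromosome 12 from 29860195 to 29861589 (1395 bp). It was untouched in all 6 familiar libraries labelled 120 and touched in all 16 other kept libraries. Its cover in familiar libraries labelled 30 was 92.6, 23.8, 93.9, 99.6 and 31.1%, with a mean of 68.2% ± 37.4 (SD, n = 5). Control means were 57% ± 24.1 at 120 (SD, n = 6) and 53.7% ± 17.6 at 30 (SD, n = 5). The familiar groups did not overlap, the lowest value at 30 being 23.8% against 0 throughout at 120. The difference of -68.2 points (SE 14.0) had an adjusted p of 0.473 in limma, and its difference from the control difference an unadjusted p of 0.00158 and an adjusted p of 0.9999. Leaving out familiar 30 replicate 6 brought the adjusted p to 0.0435, and over the 32 alternatives it ranged from 0.0435 to 1. In that fit 28 regions were called, and 16 of them were at 100% in exactly 3 libraries and 0 elsewhere. Such regions follow from how regions were built and share in the adjustment, so the value of 0.0435 supports nothing. Absence in 1 group with peaks in all other libraries was thus shown by 1 of 52979 regions for familiar 120. For familiar 30, control 120 and control 30 there were 0 regions each. Replicates 3 and 4 of familiar 120 touched the fewest regions of all kept libraries (49.8 and 56.9%), and their part in this was not tested. The peaks of the region on chromosome 12 were of low to middle rank in their lists, with a median percentile of 24.

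A second region of this kind, on chromosome 14 from 9233014 to 9233977 (964 bp), was untouched in all 6 familiar libraries labelled 120 and touched in 15 of the 16 other libraries. Its cover at label 30 was 54.0, 46, 33.1, 80.2 and 93.6%, and the control means were 47.2% at 120 and 49.1% at 30. All familiar libraries labelled 30 again lay above those labelled 120, with an adjusted p of 0.697 in limma. In all, 9 regions (0.017%) were touched in 0 of 6 libraries labelled 120 and 5 of 5 labelled 30, and 0 regions (0%) the other way round, against 2 and 2 in controls (0.00378% each). Replicates 3 and 4 of label 120 touched the fewest regions of all kept libraries, 49.8 and 56.9% of them, against 66.7 to 73.6% in the other 9 familiar libraries, and the part of this in the count was not tested.

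When regions were built only from bases covered in 11 or more libraries, here called cores, limma called 3 of 37481 cores, all lower at 120. The cores on chromosomes 12 and 14 lie inside the regions just described. On chromosome 12 from 29860358 to 29861053 (696 bp), cover was 0 in all 6 libraries labelled 120 and 100, 47.7, 100, 100 and 62.4% at 30 (difference -82.0 points, SE 13.1, adjusted p = 0.0441). On chromosome 14 from 9233535 to 9233889 (355 bp), cover was again 0 at 120 and at least 89.9% in each library at 30 (difference -98.0, SE 13.8, adjusted p = 0.0224). The third, on chromosome 16 from 14453135 to 14453514 (380 bp), was at 0 in all 6 at 120 and between 83.9 and 100% at 30 (difference -93.8, SE 14.4, adjusted p = 0.0392). These 3 cores thus had a peak in each familiar library labelled 30 and in none labelled 120. A core at 0 in all 6 was built from bases covered in 11 or more of the other kept libraries. High cover at label 30 and in controls is therefore in part fixed by how cores were built.

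Controls labelled 120 had peaks in 6 of 6 libraries at the cores on chromosomes 12 and 14 and in 4 of 6 at that on chromosome 16. Since the rule for cores in part fixes peaks in controls, their contrast with familiar 120 supports nothing by itself. Their mean cover was 84.5% ± 24.3 on chromosome 12, 85.1% ± 24.6 on chromosome 14 and 55.6% ± 45.7 on chromosome 16 (SD, n = 6), against 78.3% ± 28.1, 68.2% ± 40.7 and 99.8% ± 0.471 in controls labelled 30 (SD, n = 5). The difference between the familiar and the control difference did not pass the threshold at any of the 3, with adjusted p-values of 0.670, 0.312 and 0.965. The calls were sensitive to the libraries used. Over 26 alternatives tried after the calls were seen, the differences themselves ranged from -90.6 to -76.2 points on chromosome 12, from -100 to -96.7 on chromosome 14 and from -96.3 to -85.8 on chromosome 16. With covered length as a covariate, limma called 0 cores, with adjusted p-values of 0.190, 0.113 and 0.190. Without replicates 3 and 4 of label 120, where cover at these cores was 0 as in the other 4, the adjusted p-values were 0.431, 0.294 and 0.428. Of the 26 alternatives, 7 kept the core on chromosome 12 past the threshold, 15 that on chromosome 14 and 8 that on chromosome 16. The single libraries whose removal ended all 3 calls were familiar 120 replicates 2, 3, 4 and 6 and familiar 30 replicates 1, 4, 5 and 6, with adjusted p-values of 0.0554 to 0.208.

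**Figure D4:**
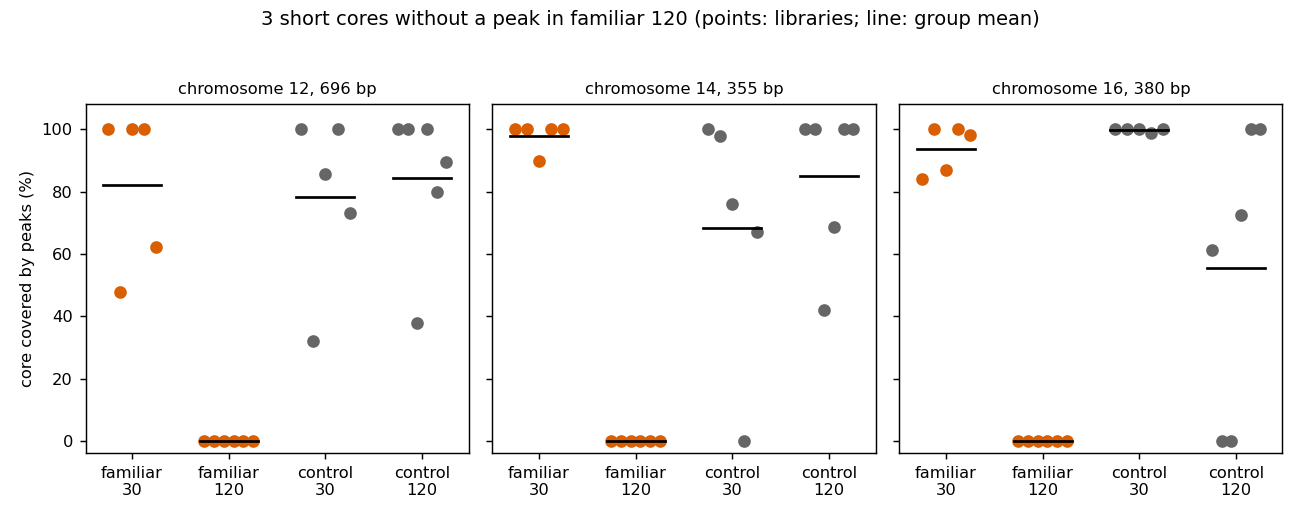
Cover (%) of the 3 cores called lower at 120 in every kept library, with 1 point per library and a line at each group mean, for familiar 30 and 120 (orange, n = 5 and 6) and control 30 and 120 (grey, n = 5 and 6). All 6 familiar 120 libraries are at 0 in each panel, while means at familiar 30 are 82.0, 98.0 and 93.8%.

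The regions with the smallest p in the main test and lower cover at 120 were short and were mostly untouched in every library labelled 120. Peaks at these 8 regions were of low to middle rank in their lists, with median percentiles from 7.37 to 34.1. On chromosome 22 from 2849910 to 2850433 (524 bp), cover was 0 in all 6 at 120 and 0, 71.8, 100, 100 and 100% at 30, and 0 in all 11 control libraries. Replicate 1 of label 30 shared the absence, so the groups overlap (difference -74.4 points, SE 12.6, limma adjusted p = 0.221). Without that replicate the adjusted p was 1.26e-06, but this removes the only exception, so the value follows from the choice of library and supports nothing. On chromosome 6 from 32979780 to 32980032 (253 bp), cover at 30 was 85.8, 100, 100, 68.0 and 0%, again with 0 in all 6 at 120 and in all 11 controls (difference -70.8, SE 12.3, adjusted p = 0.221). Without familiar 30 replicate 6, the only library of its label at 0, the adjusted p was 4.09e-06, with the same limit. Another region, on chromosome 11 from 2541460 to 2541939, was likewise touched in 4 of 5 familiar libraries labelled 30 and nowhere else. Regions with peaks in all but 1 library of a group and none elsewhere thus numbered 3 of 52979 for familiar 30. For each of the other 3 groups there were 0, but groups of 6 need peaks in more libraries for this pattern than groups of 5. These 3 regions met the rule of 3 or more libraries only through familiar libraries labelled 30. Their high cover there and small p are thus in part fixed by how regions were built.

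Full separation of the familiarised groups, with all of 120 below, was found in 83 tested regions (0.157%), and choice by small p favours it. Among the other 6 named regions with lower cover, 4 showed it. The first lies on chromosome 7 from 21095374 to 21095707 (334 bp), where cover was 0 at 120 and 65.9, 81.1, 79.6, 37.4 and 100% at 30 (difference -72.8, SE 14.3, adjusted p = 0.473). The second is the region on chromosome 13 from 13504390 to 13504902 (513 bp), present in all 5 libraries labelled 30 at 82.3, 50.5, 59.6, 75.0 and 100% and untouched at 120 (difference -73.5, SE 15.0, adjusted p = 0.473). On chromosome 22 from 19786101 to 19787284 (1184 bp), familiar 120 replicate 5 had 9.12% cover and the other 5 had 0, while values at 30 ran from 37.8 to 96.5% (difference -65.8, SE 13.4, adjusted p = 0.473). The fourth is the region on chromosome 12. The remaining 2, on chromosome 20 from 5416367 and from 14949439, were untouched in all 6 libraries labelled 120 and in 1 of 5 at 30. The region on chromosome 7 and the 2 on chromosome 20 met the rule of 3 or more libraries only through familiar libraries labelled 30. Their high cover there and small p, and the full separation on chromosome 7, are thus in part fixed by how regions were built. Control means at 120 and 30 were 0 and 20.0% on chromosome 7 and 16.0 and 18.4% on chromosome 13, low at both labels, and 20.0 and 51.2% on chromosome 22. Leaving out control 30 replicate 2, the only control library with a peak there, brought the region on chromosome 7 past the threshold (adjusted p = 0.00178), a value that follows from removing the exception and supports nothing.

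Of the 8 named regions with higher cover at 120, the first lies on chromosome 5 from 24737592 to 24738338 (747 bp). Its cover at 120 was 100, 100, 0, 68.9, 92.0 and 63.1%, and it was 0 in all 5 libraries labelled 30. Replicate 3 was the exception at 120, so the groups overlap at 0 (difference 70.7 points, SE 14.6, adjusted p = 0.473). It was touched in 1 of 6 controls labelled 120 and 1 of 5 labelled 30. Most libraries with a peak there were familiar 120, so its high cover in them is in part fixed by how regions were built. Without replicates 3 and 4 of label 120 limma called it, with a difference of 88.8 points and an adjusted p of 0.00904, and without replicate 3 alone the adjusted p was 0.0111. Replicate 3 was the only library of its label at 0, so these values too follow from removing the exception. The removal of replicates 3 and 4 also brought a region of 308 bp on chromosome 13 from 5585314 past the threshold, with a difference of 96.8 points and an adjusted p of 0.00904, and it was untouched in just these 2 libraries of label 120. The peaks of the region on chromosome 5 were among the weakest of their lists, at a median percentile of 4.43.

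The only one of these 8 that separated the familiarised groups fully lies on chromosome 7 from 23953960 to 23954846 (887 bp). Its cover at 120 was 100, 69, 61.6, 97.5, 55.9 and 76.7%, and at 30 it was 0 in 4 libraries and 54.3% in replicate 6. The highest value at 30 was just under the lowest at 120 (difference 65.9, SE 13.8, adjusted p = 0.473). Controls showed the same direction, with 59.3% ± 32.8 at 120 (SD, n = 6) and 0% in all 5 at 30, and the difference between the familiar and the control difference had an unadjusted p of 0.738. On chromosome 5 from 21304503 to 21305665 (1163 bp), the 11 control libraries were all at 0, so the region was built on familiar libraries only. Familiar libraries labelled 120 ranged there from 26.1 to 100%, with a median of 57.5%, and those labelled 30 had 0, 0, 47.7, 20.6 and 0% (difference 43.6, SE 11.3, adjusted p = 0.740). Its difference from the control difference had an unadjusted p of 0.0126 and an adjusted p of 0.9999 in limma. Most libraries with a peak there were familiar 120, so this small unadjusted p is in part fixed by how regions were built.

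The other 5 named regions with higher cover lie on chromosomes 14, 8, 6, 22 and 20. At 4 of them cover was 0 in all 5 libraries labelled 30, with means at 120 of 48.7% ± 34.3 from 21822120 on chromosome 14, 55.3% ± 45.5 from 14794408 on chromosome 6, 59.5% ± 35.7 from 14820776 on chromosome 22 and 59.2% ± 31.1 from 2240246 on chromosome 20 (SD, n = 6). In each of these 4, 1 or 2 libraries labelled 120 were at 0 as well. On chromosomes 14, 6 and 22, most libraries with peaks were familiar 120, so high cover in them is in part fixed by how regions were built. The region from 26606380 on chromosome 8 was covered in 10 of 11 familiar libraries, by 66.3% ± 25.7 at 120 (n = 6) and 14.9% ± 13.9 at 30 (n = 5). Adjusted p-values of these 5 ranged from 0.784 to 0.935 in limma. Controls had peaks at the region on chromosome 20 with either label, at 30.7% ± 35.1 (n = 6) and 49.9% ± 30.8 (n = 5).

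**Figure D5:**
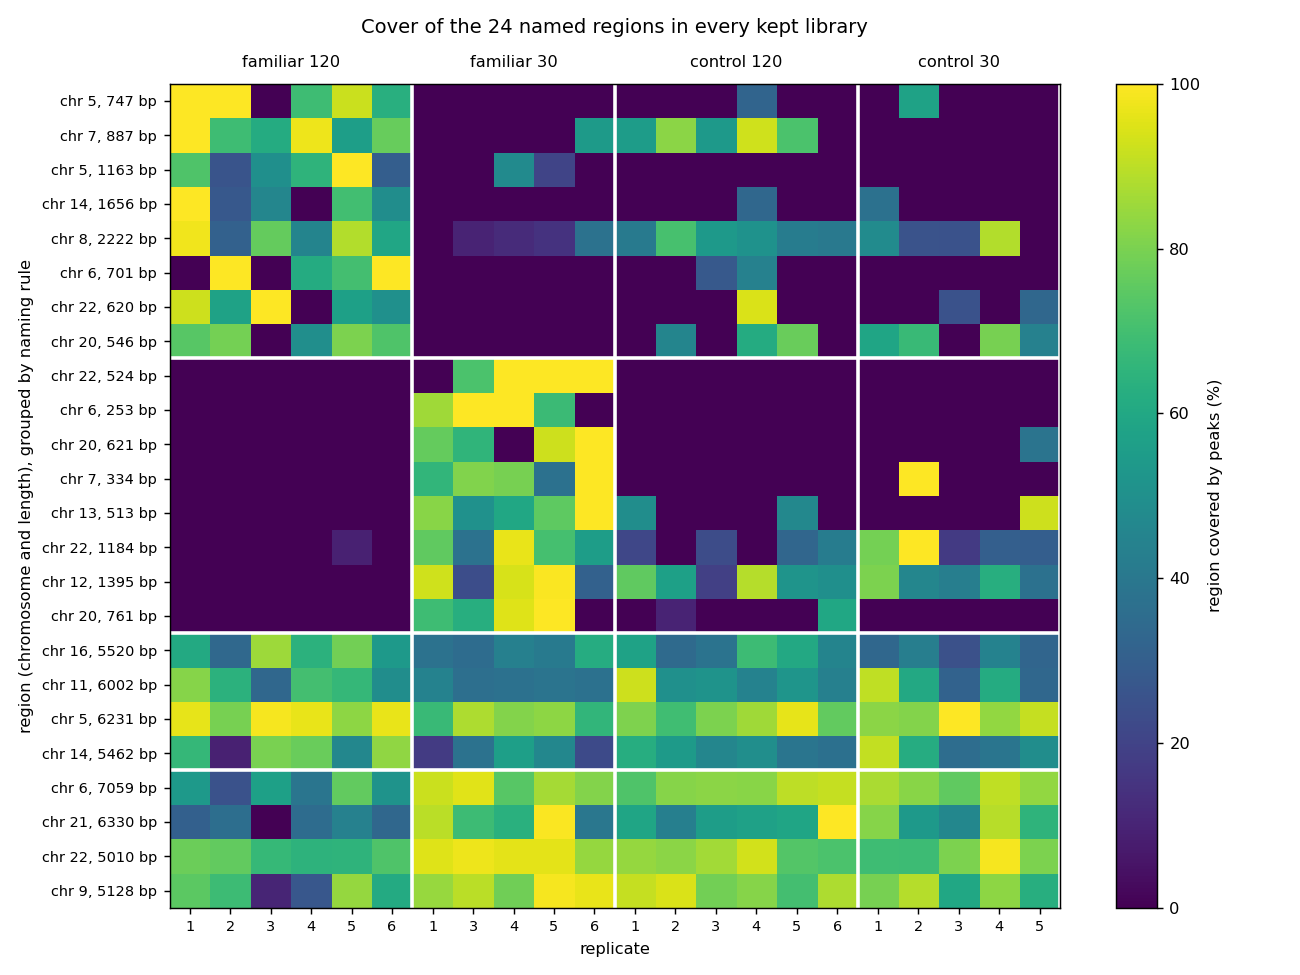
Cover (colour, 0 to 100%) of the 24 named regions (rows, by chromosome and length) in the 22 kept libraries (columns, by group and replicate). From the top, rows hold the 8 regions of smallest p with higher cover at 120, the 8 with lower cover, and the 4 of 5 kb or longer in each direction. The second block is at 0 across familiar 120 except for 9.12% in 1 library, while the long regions in the lower blocks are covered to some extent in nearly every library.

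The 8 named regions of 5 kb or longer held peaks in nearly every library, and differences were mostly in how far the peaks reached. The region with the smallest p lies on chromosome 6 from 19088251 to 19095309 (7059 bp). Its cover at 120 was 54.2, 25.2, 56.9, 38.7, 75.8 and 51.3%, and at 30 it was 92.0, 95.6, 73.8, 86.6 and 81.4%. Only replicate 5 at 120 reached into the range of label 30 (difference -35.5, SE 8.36, adjusted p = 0.697). Controls were at 83.3% ± 6.76 (n = 6) and 83.8% ± 5.61 (n = 5), close to familiar libraries labelled 30, and the difference between the familiar and the control difference had an unadjusted p of 0.00716 and an adjusted p of 0.9999. Its strongest peaks stood at a median percentile of 90.3.

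On chromosome 22 from 3951741 to 3956750 (5010 bp), the familiarised groups did not overlap, with 64.8 to 77.6% at 120 and 84.2 to 97.3% at 30 (70.4% ± 5.61, n = 6, and 93.7% ± 5.35, n = 5; difference -23.3, SE 7.37, adjusted p = 0.999). On chromosome 21 from 14296502 to 14302831 (6330 bp), replicate 3 at 120 had no peak, the other 5 had 30.6 to 43.9%, and the libraries labelled 30 had 39.7 to 99.3%. The region on chromosome 9 from 19832390 to 19837517 was lowest in replicates 3 and 4 of label 120, at 10.4 and 27.2%, against 61.3 to 84.1% in the other 4 and 78.3 to 98.5% at 30. Control means at 120 and 30 were 81.9 and 79.3% on chromosome 22, between the familiar means. They were 62.3 and 67.2% on chromosome 21 and 84.0 and 74.8% on chromosome 9. Among the 4 long regions with higher cover at 120, unadjusted p-values were 0.0582 to 0.0676 and all groups overlapped. On chromosome 11 from 20005231 to 20011232 (6002 bp), for example, cover was 33.5 to 82.0% at 120 and 36.6 to 44.4% at 30. Of the 24 named regions, all chosen by small p, 6 did not overlap between the labels. Among all tested regions, 6 (0.0113%) lay fully above and 83 (0.157%) fully below at 120. At 0 of the 24 did the difference from the control difference pass the threshold.

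Windows of 100 kb gave the same picture on a broader scale. Limma called 0 of 6044 windows (0%), with a lowest adjusted p of 0.910, and 281 (4.65%) had an unadjusted p under 0.05, of which 4 were higher at 120 (0.0662%) and 277 lower (4.58%). Cover was lower at 120 in 75.2% of windows. Within the range of fish numbers 43 to 59 this share was 88.2%, and in the ranges 17 to 29 and 69 to 80 it was 45.3% and 41.1%. The range 17 to 29 holds only 1 kept familiar library labelled 30. Without replicates 3 and 4 of label 120, 110 windows with higher and 36 with lower cover at 120 had such a p. The direction of that change is in part fixed by leaving out the libraries of lowest cover. In controls 81 windows (1.34%) had such a p, and for the difference between the familiar and the control difference 191 (3.16%), with 0 called (0%) in both.

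The window with the smallest p lies on chromosome 5 from 10700001 to 10800000 and holds 11 regions. Its cover at 120 was 25.3, 20.4, 12.8, 18.4, 26.2 and 22.8%, and at 30 it was 28.3, 27.6, 27.2, 30 and 29.7%. All libraries labelled 120 lay below all labelled 30, the nearest being 26.2 and 27.2% (difference -7.57, SE 1.90, adjusted p = 0.910). Control means were 24.2% at 120 and 23.6% at 30. The other windows with lower cover, on chromosome 14 from 7600001 (21.5% ± 3.29 against 28.6% ± 4.49) and on chromosome 2 from 18500001 (10.5% ± 2.91 against 17.8% ± 5.07), overlapped between the labels (n = 6 and 5). The 3 windows of smallest p with higher cover at 120 were on chromosome 4 from 100001, with 6.08% ± 1.53 against 4.19% ± 1.13, on chromosome 6 from 21900001, with 34.5% ± 2.27 against 31.7% ± 1.96, and on chromosome 11 from 27000001, with 7.39% ± 3.60 against 4.09% ± 1.06. These 3 also overlapped, and their adjusted p-values were 0.910.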

How the data were processed

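H3K27ac CUT&RUN peaks from forebrain were analysed as deposited, 1 list per library. Tools named in the submitters' processing notes are MACS2, Bowtie2, Picard, SAMtools, FastQC and Trimmomatic 0.39. The sources used here do not give the genome build, the settings or whether input served as a control. The authors deposited for each peak a score, a fold enrichment (a ratio over background), and -log10 p and -log10 q values. Only positions and, for ranks and filters, -log10 q were used. A shallower library gives fewer and narrower peaks, and since the lists hold no read counts, depth is unknown and counting error could not be estimated.

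Groups and replicate numbers come from titles. The labels do not say that libraries come from separate fish, and the p-values thus refer to the spread among libraries, part of which may be technical. A list was left out if it held under 0.5 times the median peak number, which removed familiar 30 replicate 2. Regions are stretches covered in 3 or more kept libraries, joined over gaps of up to 200 bp, at least 200 bp long, without the mitochondrial genome. Percent cover of regions (mean of 5 to 95%) and of 100 kb windows (mean of 1% or more) was fitted in limma 3.58.1 (R 4.3.3) with the 4 groups in 1 model, with Benjamini-Hochberg adjustment over all features tested and a threshold of 0.05. Because cover is bounded and often 0 or 100, against the assumptions of limma, presence was also compared with Fisher's exact test. Library values were compared with exact permutation tests. Fits with limma were first tried on cover values shuffled over libraries within each region, with some regions then changed, and the outcome is not given here. Python 3.11.15, numpy 2.4.6, scipy 1.17.1, pandas 2.3.3 and matplotlib 3.10.9 were used.

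Named regions are the 8 of smallest p in each direction, the 4 of smallest p among those of 5 kb or longer in each direction, the 3 windows of smallest p in each direction, and any feature past the threshold. Other regions were named after their values were seen, because few shared their pattern. The libraries, measures and rules were chosen with earlier results of these data known. Alternatives were all 23 libraries, a minimum -log10 q of 5, the 30000 strongest peaks of each list, covered length as a covariate, ranges of fish numbers as a block, array weights, familiarised groups alone, other region and window definitions, no filter on cover, and leaving out libraries.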

Additional observations from a re-analysis of the deposited data

Results flagged for a closer look

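Library values and the cover of named regions were screened for a library far from the rest of its group, in 68 sets of values, of which 11 held one. A library was taken as far off where its gap to the nearest other, divided by the range of the group, was above Dixon's 95% critical value. That rule flags about 1 in 20 sets of normally distributed values by chance, a rate not measured here, and many of these sets are regions chosen by small p with most values at 0. Familiar 120 replicate 3 stood apart in 12.9% of covered length outside all regions, in 1.89% of covered length in regions touched in at most 5 libraries, and in a median Jaccard index of 0.420 with its own label. It also stood apart at 2 named regions, with a cover of 0 on chromosome 5 from 24737592 and of 0 on chromosome 21 from 14296502, where the other 5 libraries of its label had peaks. Familiar 30 replicate 4 had 1.43% of its covered length in regions touched in at most 5 libraries.

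At single regions, familiar 30 replicate 6 stood apart with 54.3% on chromosome 7 from 23953960 and with 84.2% on chromosome 22 from 3951741. Familiar 30 replicate 1 stood apart with 0 on chromosome 22 from 2849910 and with 44.4% on chromosome 11 from 20005231. Familiar 120 replicate 5 stood apart with 9.12% on chromosome 22 from 19786101. Outside the main measurement, 11 of 11 familiarised lists held a peak over the mitochondrial genome, 16538 to 16686 bp wide, with a deposited fold of 3.21 to 21.9.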

How the results depend on the processing

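Limma called 0 regions under the alternatives tried, except 3 with regions from at least 11 libraries, 2 without 3 divergent libraries (familiar 120 replicate 3, familiar 30 replicate 4 and control 30 replicate 3), and 2 without familiar 120 replicates 3 and 4, a choice made after seeing the data. Leaving out 1 library at a time gave 0 to 28 regions, and 0 to 1 for the difference from the control difference. It gave 1 without each of familiar 30 replicates 1 and 4, control 30 replicate 2 and familiar 120 replicate 3, and 28 without familiar 30 replicate 6. Windows, library measures, chromosome shares and the Jaccard index kept their side of the threshold under every alternative run. Regions with all values at 120 above those at 30 numbered 7 to 71, and below 100 to 333, with 1 library left out, where fewer libraries make full separation easier. They numbered 1 and 28 at a minimum -log10 q of 5, 122 and 222 without 2 divergent libraries (familiar 120 replicate 3 and familiar 30 replicate 4), and 306 and 147 without familiar 120 replicates 3 and 4. Those below numbered 55 with an equal number of peaks per list and 0 with familiar 30 replicate 2 included. Limma tested 20177 regions at the minimum -log10 q and 41822 with equal numbers of peaks, against 52924 in the main test. Lower counts in those settings thus need not mean lower shares. With all 23 libraries the median difference of regions turned to 3.22 points. Including familiar 30 replicate 2 turned the difference, 120 minus 30, to 3660 peaks, 7.44 Mb, 67.8 bp in median width, 67.0 peaks of 10 kb or longer, 2.97 points in their share, 7.09 points in cover of long regions and 0.116 points in the share of regions touched in at most 5 libraries. That share was 0.324 points at a minimum -log10 q of 5 and 0.184 with equal numbers of peaks. Without familiar 120 replicates 3 and 4 the differences turned to 37.9 peaks, 0.628 Mb, 15.6 long peaks, 0.558 points in their share, 0.561 points in cover, -0.0635 peaks per long region and -0.203 points in length outside regions, which was -0.526 without the 2 divergent libraries. With 1 library left out, length outside regions ranged from -0.467 to 1.78 points, the share in long peaks from -1.16 to 0.505 and that in regions touched in at most 5 libraries from -0.232 to 0.172. Leaving out the libraries of lowest cover at 120 moves its covered length and cover upward by choice. The causes were not tested. Regions from at least 11 libraries, wider gaps and wider windows gave no value for named features of other extent. Depth is unknown, so what it limits cannot be stated. No paired analysis was possible because the replicate numbers are given in accession order and pair no fish, and the block on ranges of fish numbers called 0 regions.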

Other observations

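Leaving out familiar 30 replicate 6 brought 28 regions past the threshold of limma, 27 of them lower at 120, with a median length of 376 bp. Of the 27, 24 were untouched in every library labelled 120 and 25 were untouched in familiar 30 replicate 6. In 16 of the 28, cover was 100% in exactly 3 libraries and 0 in all others, a value that follows from building regions on 3 or more libraries. Of all regions, 2804 were touched in exactly 3 kept libraries, and all 2804 were at 100% in them. Of these 2804, those whose 3 libraries were of 1 group numbered 17 for familiar 120, 24 for familiar 30, 20 for control 120 and 13 for control 30. Groups of 6 libraries allow more sets of 3 than groups of 5, so these counts cannot be compared directly.

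In regions of 10 kb or longer, familiar 120 replicates 3 and 4 had 3.05 and 3.17 peaks per region and a cover of 57 and 68.4%, against 2.28 to 2.54 peaks and 78.5 to 82.9% in the other 4 libraries of that label.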
